A study of Mus musculus with 2 samples.

Results

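The genes described here are 44 mouse nuclear receptors, taken from a list of gene symbols that leaves out the Nr5a genes and Nr0b1. The rule of choice used no measured value, although the genes and lists were chosen with earlier results of these data known. All 44 were found, with 1 gene ID each, among 55536 annotated genes. They were measured by total RNA sequencing in 2 libraries, replicate 2 and replicate 1, of the adrenal gland of male B6CASTF1/J mice at 2 months of age. B6CASTF1/J is the F1 hybrid of the inbred strains C57BL/6J and CAST/EiJ. The labels give no treatment and no mutation, so there is 1 group, no comparison between conditions and no test. The sample descriptions number the 2 males differently while the donor record is the same for both libraries, so the spread between the libraries may be partly technical.

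Nuclear receptors are transcription factors that bind DNA through a pair of zinc fingers and, in many cases, switch on or off when a small lipophilic ligand such as a steroid, thyroid hormone, a retinoid, a fatty acid or heme enters the ligand-binding domain. Steroid receptors bind DNA mostly as homodimers, many receptors of other ligands pair with a retinoid X receptor (RXR), and orphan receptors such as Nr4a1 have no established natural ligand and act mainly through their amount. In the adrenal cortex, Nr4a genes are known as rapid responders to the pituitary hormone ACTH, which acts through cyclic AMP, and the gland supplies the corticosteroids that Nr3c1 and Nr3c2 bind elsewhere in the body.

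The first zinc finger is the part by which the family is recognised, and its last codons lie in the P box, which reads the DNA element. The coding bases of this finger are shown for 6 genes that recur in the results, from the first cysteine codon to the codon after the last cysteine, with the last 5 codons in capitals. Each lies in 1 coding exon of the named transcript (GENCODE M21, mm10).
Nr4a1 (Nr4a1-201, chr15:101270892-101270957, plus strand): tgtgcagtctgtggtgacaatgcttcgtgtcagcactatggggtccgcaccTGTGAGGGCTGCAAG
Nr4a2 (Nr4a2-201, chr2:57111588-57111653, minus strand): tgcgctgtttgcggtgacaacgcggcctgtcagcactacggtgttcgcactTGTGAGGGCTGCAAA
Nr4a3 (Nr4a3-201, chr4:48052124-48052189, plus strand): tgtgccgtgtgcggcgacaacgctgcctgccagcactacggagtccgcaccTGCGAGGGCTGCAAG
Nr1d1 (Nr1d1-201, chr11:98771437-98771502, minus strand): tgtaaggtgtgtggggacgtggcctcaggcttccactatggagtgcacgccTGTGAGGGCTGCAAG
Nr2f2 (Nr2f2-201, chr7:70360030-70360095, minus strand): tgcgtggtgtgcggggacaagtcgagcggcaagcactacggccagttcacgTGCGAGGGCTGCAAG
Esrra (Esrra-201, chr19:6920088-6920153, minus strand): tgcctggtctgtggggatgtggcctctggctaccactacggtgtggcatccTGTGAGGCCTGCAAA
A finger of this form was found in 43 of the 44 genes, all but Nr0b2, a receptor that lacks a DNA-binding domain. The 5 codons in capitals encode the same residues in 33 of the 43, from Nr4a1, Nr1d1 and Nr2f2 to the retinoid, thyroid hormone and estrogen receptors. The estrogen-related receptors Esrra, Esrrb and Esrrg share another set, Nr3c1, Nr3c2 and Pgr a further one, and Hnf4a with Hnf4g one more. Nr2e1 and Nr2e3 each stand alone. The residue after these codons, which also belongs to the P box, was not compared. Nr4a2 and Nr4a3 encode the same residue in 22 of 22 codons of the finger with 55 of 66 bases the same, and Nr4a1 matches Nr4a2 in 21 of 22 codons with 53 of 66 bases. For Nr1d1 and Nr1d2 the match is 22 of 22 codons and 56 of 66 bases, and for Nr2f1 and Nr2f2 it is 22 of 22 codons and 63 of 66 bases.

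The windows before the RefSeq starts of the 3 Nr4a genes share a sequence feature. The sequences below are the 250 bases before the RefSeq start of each gene (GRCm38.p6, the same build as mm10), shown because Nr4a1 leads the family in level and in the difference between the libraries and Nr4a2 and Nr4a3 are its closest relatives. Capitals mark the core TGACG of the cyclic AMP response element or its reverse complement CGTCA.
Nr4a1 (chr15:101266596-101266845, plus strand): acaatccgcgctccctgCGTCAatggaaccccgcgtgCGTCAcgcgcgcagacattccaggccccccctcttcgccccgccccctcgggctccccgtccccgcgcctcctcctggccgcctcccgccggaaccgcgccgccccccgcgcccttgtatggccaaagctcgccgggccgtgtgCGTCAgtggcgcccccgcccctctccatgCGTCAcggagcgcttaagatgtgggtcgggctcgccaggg
Nr4a2 (chr2:57124004-57124253, minus strand): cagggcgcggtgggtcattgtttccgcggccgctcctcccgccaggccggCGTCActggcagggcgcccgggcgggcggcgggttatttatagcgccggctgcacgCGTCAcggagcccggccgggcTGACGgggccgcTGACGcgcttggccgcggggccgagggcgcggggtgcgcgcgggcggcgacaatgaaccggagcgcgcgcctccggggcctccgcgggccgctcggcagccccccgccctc
Nr4a3 (chr4:48045055-48045304, plus strand): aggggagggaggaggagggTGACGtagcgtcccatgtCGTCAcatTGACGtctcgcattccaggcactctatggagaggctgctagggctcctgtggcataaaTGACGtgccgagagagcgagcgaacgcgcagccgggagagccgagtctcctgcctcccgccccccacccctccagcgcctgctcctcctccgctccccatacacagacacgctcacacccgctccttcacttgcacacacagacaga
Each of the 3 windows holds 4 such cores. Among the same 250 bases of 32851 RefSeq promoters, 17.8% held at least 1 core, 0.688% held at least 3 and 0.137%, or 45 windows, held at least 4. Of the 61 windows that belong to 41 of the 44 receptors, 13 held at least 1, 4 held at least 3 and 3 held at least 4. Those with at least 4 are the windows of Nr4a1, Nr4a2 and Nr4a3. The other window with at least 3 is that of Nr2e1, a gene at 0 counts by alignment in both libraries. Over the whole RefSeq windows of 300 bases, which run past the start, 20.8% held at least 1 core, and 17 of the 61 receptor windows did. The full palindrome TGACGTCA is in none of these 3 windows. Over the windows of 300 bases it is in 2 receptor windows, of Nr2e1 and Nr6a1, and in 1.79% of all windows. In Nr4a1 all 4 cores read CGTCA, and their first bases lie between 233 and 40 bases before the start. The windows do not all lie at the start of the leading transcript. For Nr4a1 the RefSeq start is that of Nr4a1-201, which leads by alignment only. Nr4a2-201, the leading transcript of Nr4a2 by both methods, starts 8965 bases downstream of the RefSeq start. Nr4a3-201, the leading transcript of Nr4a3, starts 152 bases upstream of the RefSeq start, so the end of that window lies within it. A match of letters does not show that a factor was bound.

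The libraries held 34149995 expected counts on genes in replicate 2 and 36182740 in replicate 1. Levels are in TPM, the usual share of all transcripts after division by transcript length, so that genes can be set against each other. Nuclear protein-coding genes took 30.8% of all TPM in replicate 2 and 30.1% in replicate 1, so the TPM of any receptor is small beside that of an mRNA-only library. Markers of the labelled tissue were present, since 8 of 8 genes of the cortex list and 8 of 8 of the chromaffin list reached 1 TPM in both libraries, led by Star at 5617 ± 456 TPM and Chgb at 685 ± 59.0 TPM (mean ± SD, n = 2 libraries, here and below). Fat was present in both, and the brown adipocyte gene Ucp1 had 303 TPM in replicate 2 against 629 TPM in replicate 1.

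Of the 44 receptors, 33 (75.0%) reached 1 TPM in both libraries, against 54.2% of the 22015 nuclear protein-coding genes. The 11 others all averaged 0.165 TPM or less, while the lowest of the 33, the germ cell nuclear factor Nr6a1, averaged 1.56 ± 0.417 TPM, so no receptor averaged between these 2 levels. Among the 33 the median level was 12.6 TPM, against 9.74 TPM over the 11931 protein-coding genes that reached 1 TPM. Summed over the family the level was 762 TPM in replicate 2 and 613 in replicate 1. Nr4a1 alone made up 41.4% of that sum in replicate 2 and 26.7% in replicate 1. Without Nr4a1 the sums were close, at 446.7 TPM in replicate 2 against 449.1 TPM in replicate 1.

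**Figure D1:**
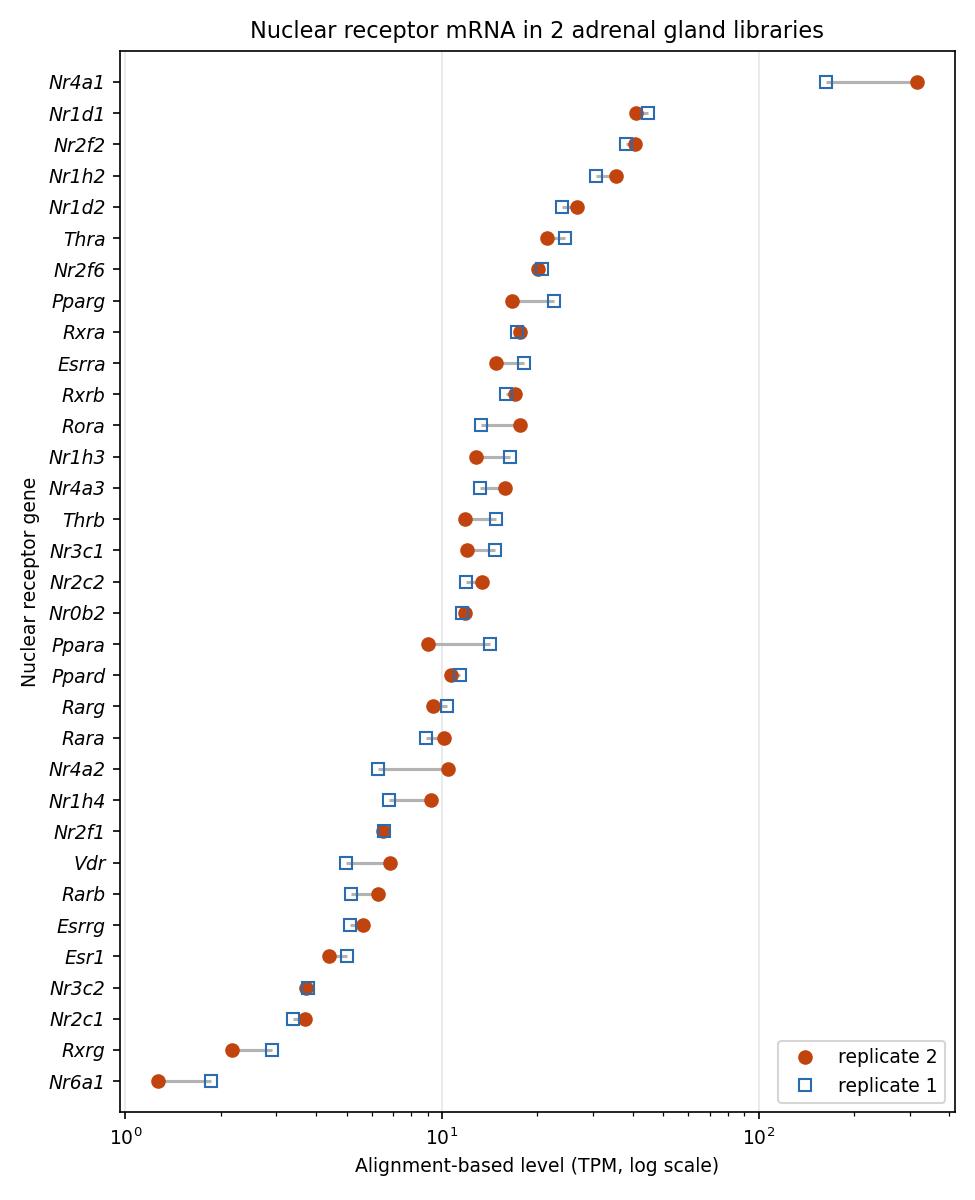
Alignment-based level (TPM, log scale) of the 33 nuclear receptor genes at 1 TPM or more in both libraries, in order of mean level, with replicate 2 as filled circles, replicate 1 as open squares and a grey line between them. Nr4a1 stands apart at 316 TPM in replicate 2 and 164 in replicate 1, and the other 32 lie between 1.27 and 44.7 TPM.

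In order of mean alignment-based level the family ran from Nr4a1 through Nr1d1, Nr2f2 and Nr1h2 to Nr1d2, each above the next with ranges over the 2 libraries that did not overlap, while Nr1d2 and the next gene, Thra, overlapped. By the read-based tables Nr2f2 came second, with 104 TPM in replicate 2 and 98.9 in replicate 1, above Nr1d1 with 74.3 TPM in replicate 2 and 75.6 in replicate 1. Of the 32 neighbouring pairs among the 33 genes, 13 had ranges that did not overlap and 19 overlapped, so most positions in the middle of the order are not settled by 2 libraries. From Pparg down to Nr2c2 no neighbouring pair was separated. By the read-based tables Nr4a1 was 5.06 times the next gene, Nr2f2, in replicate 2 and 2.62 times in replicate 1. By alignment it was 7.68 times the next gene, Nr1d1, in replicate 2 and 3.66 times in replicate 1, and its mean lay above that of 99.3% of nuclear protein-coding genes.

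The differences between the libraries are given as the log2 ratio of replicate 2 over replicate 1, from expected counts scaled by the trimmed mean of M values (TMM), with an exact 95% interval that covers counting error only. With 1 library on each side, the ratios have no replicate check. Of the 35 receptors averaging at least 20 counts, 10 were higher in replicate 2 beyond counting error, 13 were lower and 12 had an interval that held 0. The shares, 28.6% higher and 37.1% lower, stand beside 16.4% higher and 17.8% lower over the 15660 genes at that count. All 23 of these receptors averaged at least 100 counts, where the shares were 30.3% higher and 39.4% lower of 33 receptors, against 18.5% higher and 20.3% lower of 12430 genes. Counting intervals narrow as counts rise, and the receptors were not matched with genes of like count. The gap between the shares is therefore not read as a receptor trait. The median ratio of the 35 was -0.09, against -0.01 over all genes. None of the 33 was over 2-fold apart, while 0.225% of the 12430 genes were over 2-fold higher and 0.225% over 2-fold lower.

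**Figure D2:**
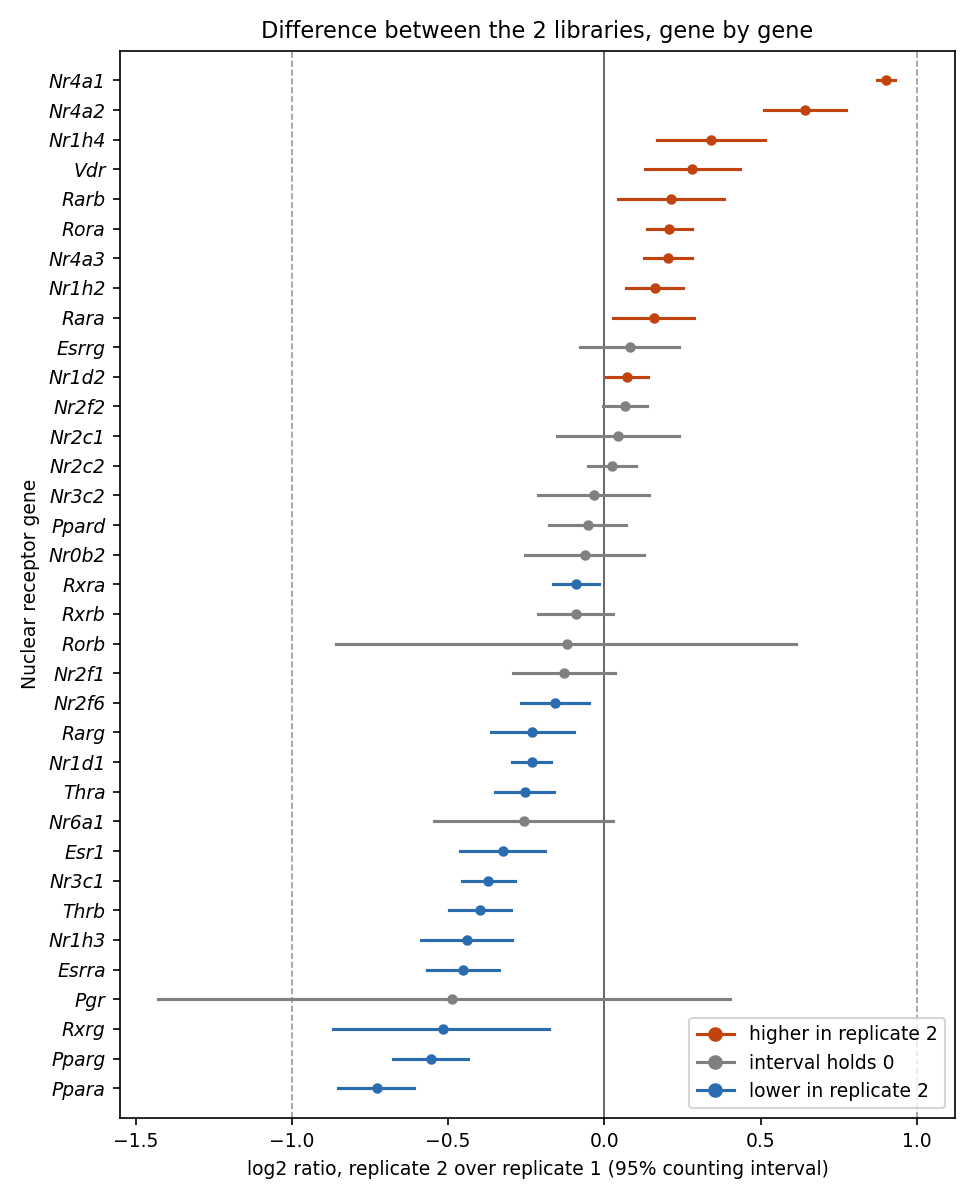
Log2 ratio of replicate 2 over replicate 1 for the 35 receptors averaging at least 20 counts, with points for the ratio, bars for the 95% counting interval and dashed lines at 2-fold. Nr4a1 and Nr4a2 head the genes that were higher in replicate 2 (red), and Ppara, Pparg and Rxrg the genes that were lower (blue).

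The orphan receptors of the Nr4a group, encoded by immediate early genes, were the most abundant group and held the largest ratios upward, those of Nr4a1 and Nr4a2. Nr4a1, also called Nur77, had 26820 expected counts and 316 TPM in replicate 2 and 14443 counts and 164 TPM in replicate 1. Its log2 ratio was 0.90 with a counting interval of 0.87 to 0.93, a 1.87-fold difference, and 0.66% of genes averaging at least 100 counts were at least as far apart. Nr4a2, or Nurr1, had 10.5 TPM in replicate 2 against 6.29 TPM in replicate 1. Its log2 ratio of 0.64 (0.51 to 0.77) was matched or passed by 2.05% of genes. For Nr4a3, or Nor1, the levels were 15.8 TPM in replicate 2 and 13.2 in replicate 1, a ratio of 0.20 (0.13 to 0.28) that 26.3% of genes reached. All 3 were thus higher in replicate 2, in the order Nr4a1, Nr4a2, Nr4a3 by ratio, while by level Nr4a3 ranked above Nr4a2. Nr4a1 stood 19.95 times above Nr4a3 in replicate 2 and 12.4 times in replicate 1.

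The methods placed Nr4a1 on different transcripts that encode the same 601-residue protein. The read-based tables put 98.2% of its TPM in replicate 2 and 94.5% in replicate 1 on Nr4a1-202. The alignment-based tables put 97.9% in replicate 2 and 92.6% in replicate 1 on Nr4a1-201, whose start is that of the promoter window above and lies 12577 bases downstream of the start of Nr4a1-202. The start that was used is therefore not settled by these files, whereas the total for the gene was higher in replicate 2 by both methods, with read-based levels of 526 TPM in replicate 2 against 259 TPM in replicate 1.

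The REV-ERB genes Nr1d1 and Nr1d2, heme-binding repressors of the circadian clock, summed to 67.7 TPM in replicate 2 and 68.6 in replicate 1. Nr1d1 had 41.1 TPM in replicate 2 against 44.7 TPM in replicate 1, and its log2 ratio was -0.23 (-0.30 to -0.17). Nr1d2 had 26.6 TPM in replicate 2 and 23.8 in replicate 1, with a ratio of 0.07 (0.01 to 0.14). The ratio of Nr1d2 fell within counting error by read-based counts, at 0.03, so a difference in Nr1d2 was not settled. Rora, an activator that binds the same DNA elements as the REV-ERBs, had 17.7 TPM in replicate 2 against 13.3 TPM in replicate 1, and a ratio of 0.21 (0.14 to 0.28). By alignment, its 523-residue form held 38.5% of its TPM in replicate 2 and 40.9% in replicate 1, and its 467-residue form 36.7% in replicate 2 and 45.9% in replicate 1. Rorb, known from retina and brain, had 32 counts in replicate 2 and 35 in replicate 1. Of the 8 listed REV-ERB and ROR target genes, 7 reached 1 TPM in both libraries, and of the 8 with 20 or more counts, 1 was higher (12.5%) and 3 were lower (37.5%) in replicate 2, beside 16.4% higher and 17.8% lower over all genes. Elovl3, 1 of the 3 lower, is also on the list of brown adipocyte markers. The highest was Bhlhe40, a clock repressor, at 25.1 ± 10.3 TPM.

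The orphan COUP-TF receptors Nr2f1, Nr2f2 and Nr2f6 summed to 67.3 TPM in replicate 2 and 65.3 in replicate 1. Nr2f2 led with 40.8 TPM in replicate 2 against 38.1 TPM in replicate 1, followed by Nr2f6 with 20.1 TPM in replicate 2 and 20.7 in replicate 1 and Nr2f1 with 6.49 TPM in replicate 2 against 6.57 TPM in replicate 1. Nr2f2 was 6.28 times Nr2f1 in replicate 2 and 5.79 times in replicate 1. The intervals of Nr2f2 and Nr2f1 held 0, and Nr2f6 was lower in replicate 2 with a ratio of -0.16 (-0.27 to -0.05), a call that was lost by total count, at -0.08. The testicular receptors Nr2c2 and Nr2c1, orphan repressors found in many tissues, had 12.6 ± 1.03 and 3.53 ± 0.212 TPM, and both intervals held 0. Nr2e1 and Nr2e3, receptors of neural stem cells and of photoreceptors, had at most 1 count in either library by alignment.

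**Figure D3:**
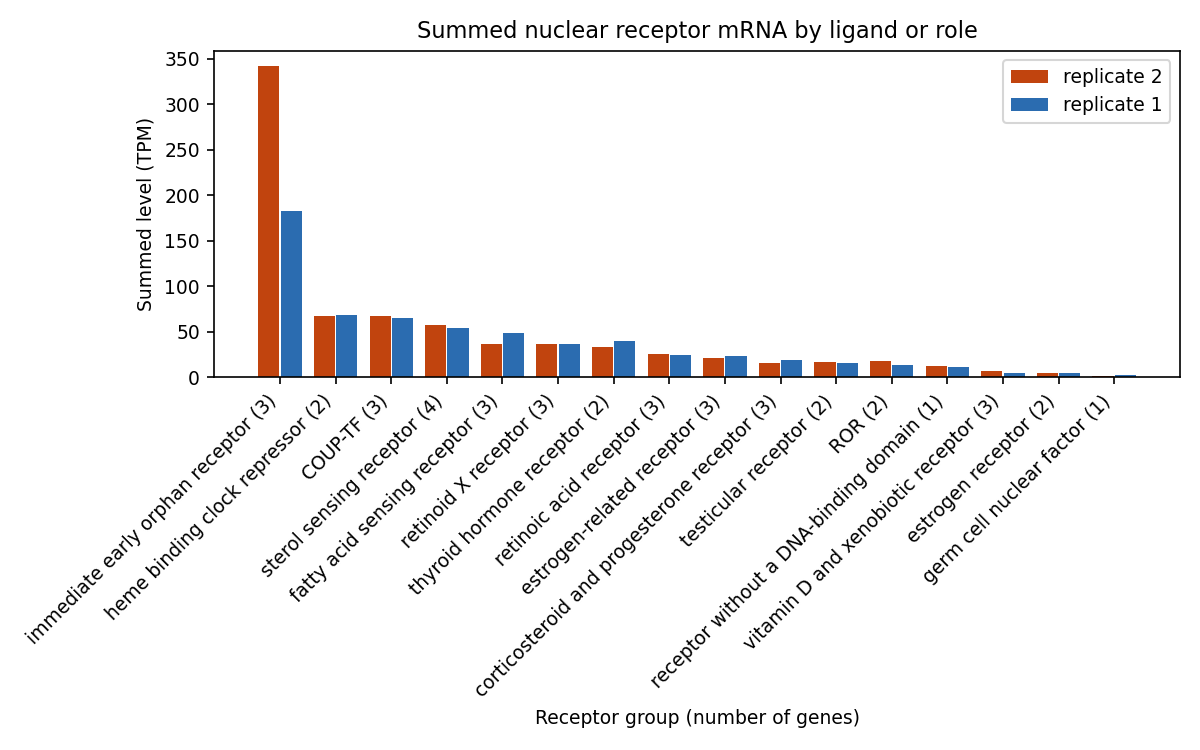
Summed level (TPM) of the receptors of each group, with the number of genes in brackets, for replicate 2 (left bar) and replicate 1 (right bar). The Nr4a group reached 342 TPM in replicate 2 and 183 in replicate 1, and no other group passed 70 TPM; the HNF4 and Nr2e groups, with no gene at 1 TPM, are not drawn.

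Sterol-sensing receptors were led by the liver X receptor (LXR) gene Nr1h2, whose protein binds oxysterols, at 35.5 TPM in replicate 2 against 30.6 TPM in replicate 1. The other LXR gene, Nr1h3, had 12.8 TPM in replicate 2 and 16.4 in replicate 1. The 2 LXR genes differed in opposite directions, with ratios of 0.16 (0.07 to 0.25) for Nr1h2 and -0.44 (-0.59 to -0.30) for Nr1h3. Nr1h2 was 2.78 times Nr1h3 in replicate 2 and 1.86 times in replicate 1. Nr1h4, which encodes the bile acid receptor FXR, had 9.20 TPM in replicate 2 against 6.81 TPM in replicate 1, a ratio of 0.34 (0.17 to 0.51), and both methods gave its leading form as the 474-residue one, at 77.2 ± 3.95% by alignment. Nr1h5, a sterol receptor of rodents, was at 0 counts in both libraries. Nr0b2, or SHP, which FXR induces in liver, had 11.8 TPM in replicate 2 and 11.6 in replicate 1. Of 10 LXR targets, 8 reached 1 TPM, with 2 higher and 4 lower in replicate 2, beside 16.4% and 17.8% over all genes. They were led by Apoe, an apolipoprotein, at 303 ± 23.2 TPM.

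The thyroid hormone receptors Thra and Thrb, which bind triiodothyronine, were both lower in replicate 2. Thra had 21.4 TPM in replicate 2 against 24.5 TPM in replicate 1, a ratio of -0.26 (-0.35 to -0.16). Thrb had 11.8 TPM in replicate 2 and 14.9 in replicate 1, a ratio of -0.40 (-0.50 to -0.30). More of the Thra signal lay on the 492-residue form, which is known not to bind the hormone, than on the hormone-binding 410-residue form. The 492-residue form held 53.5% of TPM in replicate 2 and 50.9% in replicate 1, and the 410-residue form 37.1% in replicate 2 and 37.2% in replicate 1. By the read-based method the 492-residue form again held more, at 48.5 ± 7.72% against 32.5 ± 5.43%. The transcript of the 492-residue form, Thra-201, overlaps Nr1d1 on the opposite strand by 1075 bases. That of the 410-residue form, Thra-202, ends before Nr1d1. The effect of this overlap on the shares was not tested. For Thrb, the 461-residue form held 28.7 ± 1.37% by the read-based method and 41.2 ± 0.88% by alignment, the 475-residue form known from the pituitary held 21.1 ± 0.03% by the read-based method and 34.3 ± 1.04% by alignment, and the remainder was on transcripts without a complete coding sequence. Of 10 genes of thyroid hormone supply, 6 reached 1 TPM, and of 7 with enough counts 1 was higher (14.3%) and 2 lower (28.6%) in replicate 2. The activating deiodinase Dio2 had 9.33 TPM in replicate 2 against 13.5 TPM in replicate 1. Of 6 thyroid hormone receptor targets with enough counts, 2 were higher and 2 lower (33.3% each). Over all genes 16.4% were higher and 17.8% lower.

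Retinoic acid receptors summed to 25.9 TPM in replicate 2 and 24.5 in replicate 1. Rarg had 9.40 TPM in replicate 2 against 10.4 TPM in replicate 1, Rara 10.2 TPM in replicate 2 and 8.92 in replicate 1, and Rarb 6.29 TPM in replicate 2 against 5.16 TPM in replicate 1. Rara and Rarb were higher in replicate 2, at 0.16 (0.03 to 0.29) and 0.21 (0.04 to 0.38), and Rarg was lower, at -0.23 (-0.36 to -0.10). Each of Rara and Rarg was divided between forms that differ at the amino end: by alignment, the 462-residue form of Rara held 56.8 ± 2.18% and the 459-residue form 42.6 ± 3.06%, while the 447-residue form of Rarg held 58.7 ± 2.62% and the 458-residue form 32.5 ± 2.73%. Of 15 retinoid supply genes 10 reached 1 TPM, led by the retinaldehyde dehydrogenase Aldh1a1 at 38.1 ± 8.12 TPM, and of 11 with enough counts 2 were higher (18.2%) and 4 lower (36.4%) in replicate 2. Of 5 retinoic acid targets with enough counts, 1 was higher and 2 were lower, beside 16.4% higher and 17.8% lower over all genes. The target list shares 6 of its 8 genes with the supply list.

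The retinoid X receptors, the common partners, were present mainly as Rxra, with 17.6 TPM in replicate 2 and 17.2 in replicate 1, and Rxrb, with 17.0 TPM in replicate 2 against 15.9 TPM in replicate 1. Rxrg had 2.17 TPM in replicate 2 and 2.9 in replicate 1, a ratio of -0.52 (-0.87 to -0.18). The 340-residue form of Rxrg, known from heart and skeletal muscle, held 83.7% in replicate 2 and 66.7% in replicate 1 by the read-based method, and 99.5 ± 0.73% by alignment. Rxra was slightly lower in replicate 2 by scaled counts, at -0.09 (-0.16 to -0.02), but its TPM was slightly higher. The genes of the thyroid hormone, retinoic acid, fatty acid and vitamin D receptors and of LXR and FXR, 12 in all, encode RXR partners and summed to 159.8 TPM in replicate 2 against 170.6 TPM in replicate 1, or 4.35 times the RXR sum in replicate 2 and 4.74 times in replicate 1. With Nr4a1, Nr4a2, Nr1i2 and Nr1i3, which can also pair with RXR, the sum was 485.8 TPM in replicate 2 against 340.5 TPM in replicate 1, or 13.2 times the RXR sum in replicate 2 and 9.46 times in replicate 1.

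Fatty acid receptors showed the largest ratios downward. Ppara, which drives fatty acid oxidation, had 879 counts and 9.03 TPM in replicate 2 and 1465 counts and 14.1 TPM in replicate 1. Its ratio was -0.73 (-0.85 to -0.61), and 1.42% of genes were at least as far apart. Pparg, the adipocyte regulator, had 16.7 TPM in replicate 2 and 22.5 in replicate 1, a ratio of -0.56 (-0.68 to -0.44) that 3.2% of genes reached. Ppard, found in most tissues, had 10.6 TPM in replicate 2 against 11.4 TPM in replicate 1, with an interval that held 0. The estrogen-related receptor Esrra, a regulator of mitochondrial genes, was also lower in replicate 2, with 14.8 TPM in replicate 2 and 18.2 in replicate 1 and a ratio of -0.45 (-0.57 to -0.34). Its relative Esrrg had 5.61 TPM in replicate 2 against 5.11 TPM in replicate 1, with an interval that held 0, and Esrrb, a factor of pluripotent cells, had 7 counts in replicate 2 and 12 in replicate 1.

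The target lists of these receptors and the fat markers were mostly lower in replicate 2 as well. All 8 of 8 PPAR gamma targets and 8 of 8 estrogen-related receptor targets were lower in replicate 2, with median ratios of -0.60 and -0.52, and of 8 PPAR alpha targets with enough counts 6 were lower and 1 higher, with a median of -0.34. Over all genes 17.8% were lower and the median was -0.01. The most abundant target of each list was Fabp4, a fatty acid carrier of adipocytes, Atp5b, an ATP synthase subunit, and Acadm, a fatty acid dehydrogenase. Brown adipocyte markers summed to 783 TPM in replicate 2 and 1543 in replicate 1, with 6 of 6 lower, and white adipocyte markers to 2830 TPM in replicate 2 against 3574 TPM in replicate 1, with 7 of 7 lower. Of the 8 PPAR gamma targets, 4 are also on the white adipocyte list. No gene of either fat list was at 0. In whole tissue, fewer cells of a type and less RNA per cell cannot be told apart, and the part of fat in the ratios of Ppara, Pparg, Esrra and Nr1h3 was not tested.

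**Figure D4:**
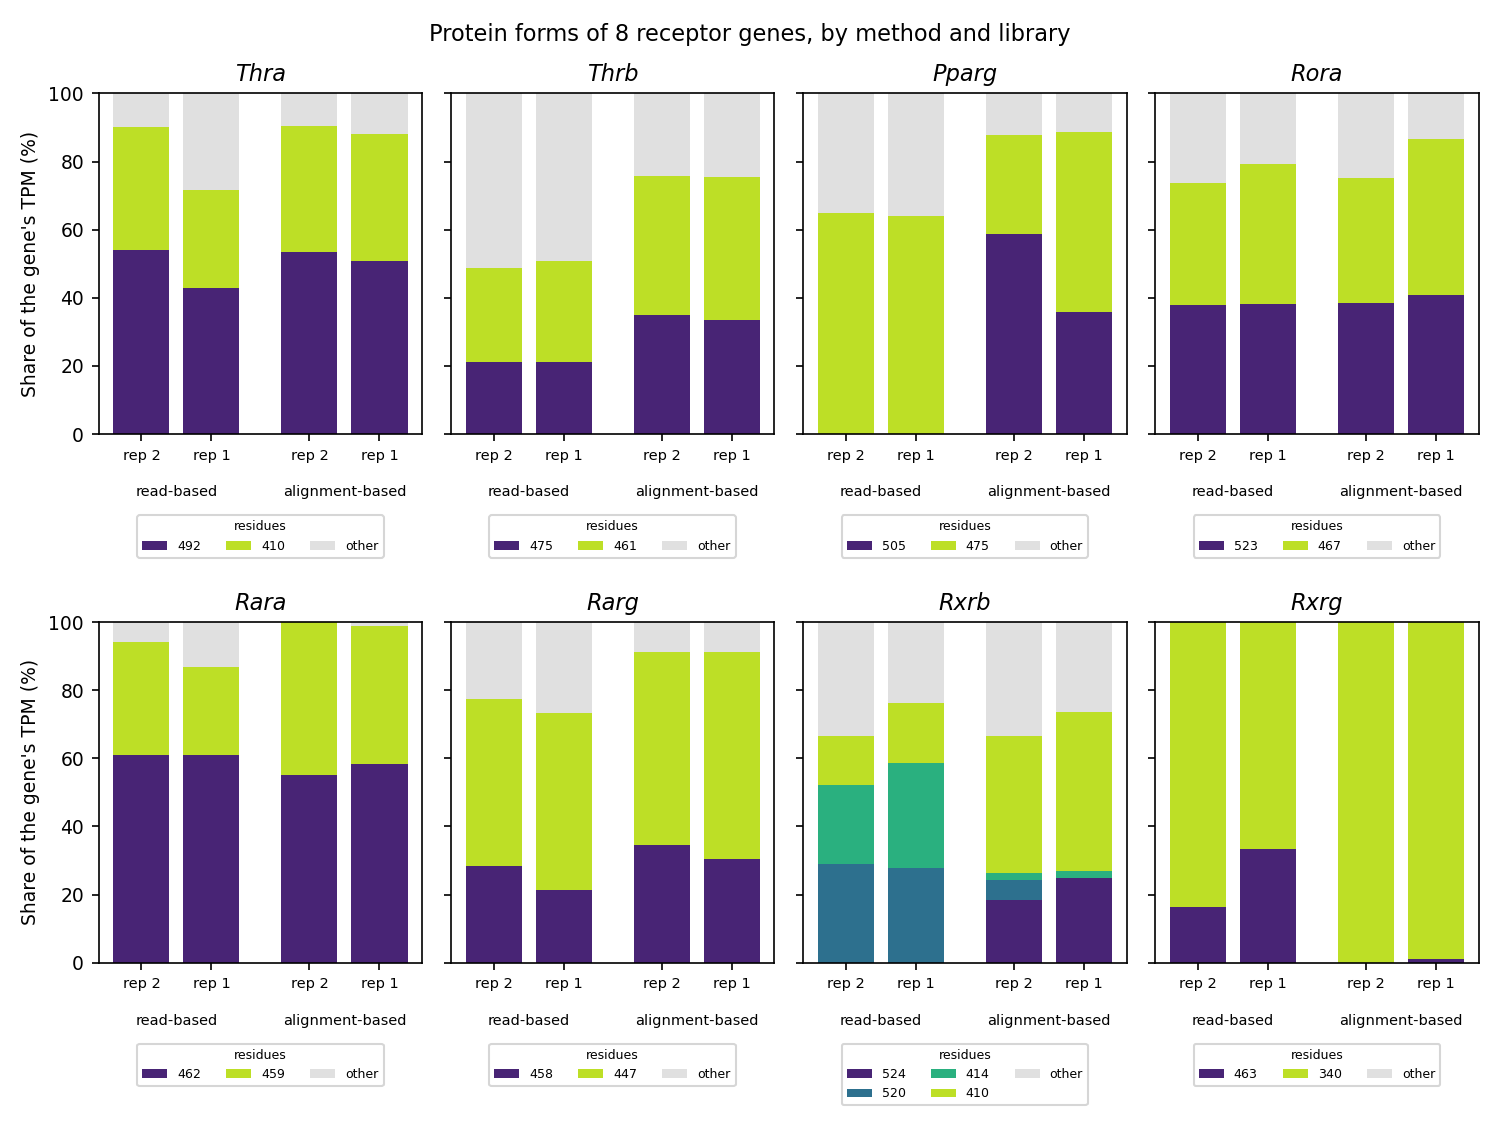
Share of each gene's TPM (%) on transcripts that encode each complete protein form, by length in residues, for 8 receptors, with read-based shares at the left, alignment-based shares at the right, and replicate 2 left of replicate 1 within each method. Grey marks transcripts without a complete coding sequence. Thra and Rora divided alike by both methods in replicate 2, while Pparg and Rxrb divided differently.

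Pparg shows how far the form depends on the method. The 505-residue form, the adipocyte form with an extended amino end, held 0.01% by the read-based method and 47.4% by the alignment-based method, averaged over the libraries. Within the alignment-based tables it held 58.9% in replicate 2 and 35.9% in replicate 1. The 475-residue form held 64.4 ± 0.680% by the read-based method and 40.8 ± 16.8% by alignment. Rxrb likewise had its 520-residue form in the lead by the read-based method, at 28.4 ± 0.71%, and its 410-residue form in the lead by alignment, at 43.5 ± 4.61%. Over the 32 expressed receptors with more than 1 annotated transcript, both methods had the same leading transcript in 23 and another in 9, namely Nr4a1, Nr2c1, Nr1h3, Pparg, Rxrb, Nr3c1, Nr2f2, Thrb and Nr1h2. No such count was made over all genes. For Nr4a1, Nr2c1, Nr1h3 and Nr3c1 both leading transcripts encode the same protein. At the level of whole genes, the read-based TPM was within 2-fold of the alignment-based TPM in all 33 expressed receptors, after centring each library on the median of 13132 protein-coding genes, of which 2.0% were over 2-fold apart in both libraries. Thrb, Vdr and Nr2f2 lay furthest up, with centred log2 ratios of read-based over alignment-based TPM of 0.54, 0.52 and 0.42 in replicate 2 and 0.51, 0.66 and 0.52 in replicate 1.

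The corticosteroid receptors were of moderate level in the gland that makes their ligands. Nr3c1, the glucocorticoid receptor, had 12.0 TPM in replicate 2 and 14.7 in replicate 1, with a ratio of -0.37 (-0.46 to -0.29). Nr3c2, the mineralocorticoid receptor, had 3.71 TPM in replicate 2 against 3.78 TPM in replicate 1, with an interval that held 0. Nr3c1 was 3.22 times Nr3c2 in replicate 2 and 3.88 times in replicate 1. By alignment, the 792-residue form of Nr3c1 held 65.2% of its TPM in replicate 2 and 64.1% in replicate 1, although the transcript within it did not stay the same: Nr3c1-203 held 55.2% in replicate 2 and 24.6% in replicate 1, and Nr3c1-204 held 10.03% in replicate 2 and 39.5% in replicate 1. By the read-based method the form held 55.5% in replicate 2 and 50.2% in replicate 1, and Nr3c1-204 held 30.6% in replicate 2 and 30.2% in replicate 1. Of 12 glucocorticoid receptor targets, all at 1 TPM or more, 6 were higher and 2 lower in replicate 2, beside 16.4% and 17.8% over all genes. The clock gene Per1 was 1 of the 6 and the only gene of the list over 2-fold apart, with 37.5 TPM in replicate 2 and 15.9 in replicate 1. The 13 genes on the list of steroid receptor chaperones all reached 1 TPM, with 3 higher (23.1%) and 4 lower (30.8%) in replicate 2. They were led by Hsp90ab1 at 571 ± 0.354 TPM. The chaperone list shares 1 gene with the glucocorticoid receptor targets, and that gene is counted as higher in both. Of 9 enzymes that convert glucocorticoids and androgens, 5 reached 1 TPM, led by the steroid 5-alpha-reductase Srd5a2 at 1077 ± 191 TPM, and of 5 with enough counts 1 was higher and 2 lower.

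Among the sex steroid receptors, Esr1 had 4.39 TPM in replicate 2 against 5.01 TPM in replicate 1, a ratio of -0.33 (-0.46 to -0.19). Its full-length 599-residue form held 97.0% in replicate 2 and 93.2% in replicate 1 by alignment, and 89.2% in replicate 2 and 70.8% in replicate 1 by the read-based method. The progesterone receptor Pgr had 19 counts in replicate 2 and 27 in replicate 1. Esr2 had 11.9 estimated counts in replicate 2 and 9.44 in replicate 1 by the read-based method, and 1 count in replicate 2 and 0 in replicate 1 by alignment. A processed pseudogene on the same strand, Gm7862, overlaps Esr2 by 292 bases and had 3.70 TPM in replicate 2 and 3.08 in replicate 1, so the level of Esr2 is uncertain. Vdr, the vitamin D receptor, had 6.86 TPM in replicate 2 against 4.96 TPM in replicate 1, with a ratio of 0.28 (0.13 to 0.43). On the joint list of vitamin D and estrogen receptor targets, 1 of 6 genes, Greb1, reached 1 TPM, at 23.7 ± 7.84 TPM, while 2 were at 0 in both libraries. Greb1 had 29.2 TPM in replicate 2 against 18.1 TPM in replicate 1, a ratio of 0.54 (0.47 to 0.60). Of 7 enzymes of oxysterols and vitamin D, 2 reached 1 TPM and none of the 4 with enough counts was beyond counting error. Over all genes 16.4% were higher and 17.8% lower in replicate 2.

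Receptors known from liver and gut were found both among the expressed genes, with Nr1h4 and Nr0b2 above, and in the set near 0. Nr1i2, the pregnane receptor PXR, Hnf4g and Nr1h5 had no count in either library by either method. Nr2e1 had none by alignment and 3.01 estimated counts in replicate 2 and 0 in replicate 1 by the read-based method. A count of 0 allows up to 3 counts by the one-sided 95% limit used as the floor here (3.69 by the exact two-sided one), or 0.0878 CPM (counts scaled to library size) in replicate 2 and 0.0829 in replicate 1. Nr1i3, the xenobiotic receptor CAR, had 1 count in each library, although Tomm40l, which overlaps it by 4691 bases on the opposite strand, had 17.3 TPM in replicate 2 and 18.3 in replicate 1. Cyp2b10, a known target of CAR in liver, nonetheless had 7.73 TPM in replicate 2 against 15.9 TPM in replicate 1 and was the only 1 of 7 FXR, PXR and CAR targets to reach 1 TPM. Its ratio of -1.15 was past 2-fold, with a counting interval (-1.306 to -0.997) that reached just under 2-fold. Of the 12430 genes averaging at least 100 counts, 0.225% were over 2-fold lower. Hnf4a, the hepatocyte receptor, had 32 counts in replicate 2 (exact 95% Poisson interval 21.9 to 45.2) and 7 counts in replicate 1 (2.81 to 14.4), so these intervals did not overlap, although its mean is under the minimum of 20 counts for a ratio. Beside it, the 5 liver markers summed to 7.96 TPM in replicate 2 and 2.30 in replicate 1, led by Alb with 347 counts in replicate 2 and 66 in replicate 1. Of the 3 liver markers with enough counts, 2 were higher in replicate 2 and 1 had an interval that held 0. The 5 kidney markers summed to 5.76 TPM in replicate 2 and 2.67 in replicate 1, with 2 of 3 higher in replicate 2. Both counts rest on 3 genes, and over all genes 16.4% were higher in replicate 2. The part of either tissue in the Hnf4a counts was not tested.

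Some of these genes lie side by side. On chromosome 11, Thra (chr11:98740638-98769006, plus strand) overlaps Nr1d1 (chr11:98767932-98775333, minus strand) by 1075 bases, and Rara (chr11:98927818-98974942, plus strand) begins 152484 bases beyond Nr1d1. Chromosome 14 holds their relatives in the same vicinity, with Thrb 165963 bases from Nr1d2 and 841104 bases from Rarb. Between the libraries, Thra and Thrb were both lower in replicate 2 and Rara and Rarb both higher. The remaining pair differed in sign, with ratios of -0.23 for Nr1d1 and 0.07 for Nr1d2, the latter not settled by read-based counts. The library kit keeps strand, so the overlap of Thra and Nr1d1 can be told apart only as far as the counting used it. Esrra, Nr2f6, Nr2c2 and Rarb each also overlap a protein-coding gene on the opposite strand.

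The cofactors that receptors recruit were measured throughout. All 17 coactivators and all 13 corepressors reached 1 TPM in both libraries. Of the coactivators 6 were higher (35.3%) and 2 lower (11.8%) in replicate 2, beside 16.4% and 17.8% over all genes, led in level by Prmt1, an arginine methyltransferase, at 71.9 ± 5.92 TPM. Among the corepressors 5 were higher (38.5%) and 2 lower (15.4%). Ncor1, a corepressor that REV-ERBs recruit, had 57.3 TPM in replicate 2 and 48.4 in replicate 1. The median ratios of the 2 lists, 0.02 and 0.06, stand beside -0.01 over all genes.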

How the data were processed

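Total RNA (300 ng) with ERCC spike-ins was made into directional libraries after ribosomal RNA reduction, per the labels' protocols. The deposited tables use mm10 with GENCODE M21, per the file notes. The authors deposited expected counts, TPM and FPKM per gene and transcript from alignments, and estimated counts and TPM per transcript from reads. The deposited FPKM were not used. Aligner and quantifier names are not given in the sources used here. Spike-in rows (0.885% of counts in replicate 2, 0.904% in replicate 1) were left out.

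Read-based values were summed per gene. Ratios used unrounded expected counts plus a prior of 0.5 over library sizes scaled by TMM (edgeR 4.0.16), with exact Clopper-Pearson 95% intervals in Python 3.11.15 with scipy 1.17.1, for genes averaging at least 20 counts, or at least 100 for 2-fold calls. Intervals and floors cover counting error only, since reads carry no molecular identifiers. DESeq2 1.42.0 size factors, an alternative, were taken over genes averaging at least 20 counts. The script was tested on simulated data. Protein forms are the distinct complete coding sequences of GENCODE M21, and zinc fingers were compared by codon because no protein table was used here. Motifs were searched on both strands, overlaps allowed.

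All 44 genes are named. Of 17 target and cofactor lists, named genes come from the 3 of highest mean TPM and any that were over 2-fold apart and averaged at least 100 counts. Of 13 cell type lists, the highest is named first. The genes and lists were chosen with earlier results of these data known. Some items are not reported here.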

Additional observations from a re-analysis of the deposited data

How the results depend on the processing

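Levels in TPM depend on what they are scaled over. The mean summed level of the 44 receptors was 687 TPM, against 1282 TPM by the read-based tables and 2282 TPM when rescaled over nuclear protein-coding genes, and the median of the expressed receptors was 12.6 TPM, against 20.7 and 41.9 TPM. Leaving out replicate 1 or 2 gave sums from 613 to 762 TPM and medians from 11.8 to 13.2 TPM. The median leading transcript share was 54.2% by the read-based method and 68.0% by alignment. Without centring, 9 receptors in place of 0 were over 2-fold apart between the methods, since read-based TPM were higher for most genes. The median log2 ratio over 13132 protein-coding genes was 0.94 in replicate 2 and 0.85 in replicate 1, itself near 2-fold. The 9 are therefore not read as a receptor trait. The number of receptors at 1 TPM, the counts beyond counting error in each direction and the count over 2-fold apart stayed within 1.5 times under every alternative run. The balance of directions did depend on the scaling. By TMM 10 receptors were higher in replicate 2 and 13 lower, and by total count 12 were higher and 11 lower. The median receptor ratio was -0.091 by TMM, -0.015 by total count and 0.0 by TPM, so a lean of the family downward is not settled. Of the 23 receptors beyond counting error, Rxra turned to 0.035 by TPM, and 3 lost the call under 1 alternative each: Rxra at -0.015 and Nr2f6 at -0.08 by total count, and Nr1d2 at 0.03 by read-based counts. No paired analysis was possible because there is only 1 group. With 2 libraries, spread rests on 1 difference per gene, and differences between animals and between libraries cannot be told apart.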

Other observations

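Other cell type lists held genes beyond counting error between the libraries, beside 16.4% higher and 17.8% lower over all genes. Of the chromaffin list 7 of 8 genes were lower in replicate 2, with a summed level of 2232 TPM in replicate 2 and 2570 TPM in replicate 1. The capsule and stroma list had 6 of 6 lower, led by Dcn, a matrix proteoglycan, at 87.5 ± 10.6 TPM, and the smooth muscle list had 4 of 4 lower, led by Tagln at 72.4 ± 7.33 TPM. Red cell genes had 3 of 3 lower, led by Hba-a1 with 442 TPM in replicate 2 and 758 TPM in replicate 1. The cortex list had 4 of 8 higher and 2 lower, with sums of 16591 TPM in replicate 2 and 14955 TPM in replicate 1, and the endothelium list had 4 of 6 higher, led by Plvap at 67.9 ± 6.48 TPM. Of 4 Schwann and sustentacular genes with enough counts 2 were lower, led in level by S100b. Of 5 macrophage genes 1 was lower, with Lyz2 at 48.9 ± 0.233 TPM, and Ighm, the 1 lymphocyte gene with enough counts, had an interval that held 0. The kidney list had 2 of 3 genes higher in replicate 2, with sums of 5.76 TPM in replicate 2 and 2.67 TPM in replicate 1, led by Kap. The part of these cell types in the receptor ratios was not tested.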
